A study of Mus musculus with 2 samples.

Results

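The genes described here are the matrix metalloproteases (Mmp), their tissue inhibitors (Timp), the ADAM and ADAMTS metalloproteases, and the plasminogen activators with their receptor (Plau, Plat, Plaur). They were picked by a rule on gene symbols, which uses no values, but earlier results of these data were known when the set was chosen. The array held 71 of them, on 103 probes, among 17869 genes on 25697 probes. They were measured in wounded back skin of C57BL6 mice aged 3 months and fed a low calcium diet, 3 days after wounding. Each mouse had received 2 full-thickness wounds of 6 mm, and skin of 8 mm across was taken, so that wound, wound edge and nearby skin with all their cell types are mixed. In both groups the vitamin D receptor gene Vdr was floxed, written VDR fl/fl in the labels. The knockout mice also carried Cre under the keratin 14 promoter, which is active in basal keratinocytes, so dermal and immune cells keep Vdr by design, and the controls were littermates. There was 1 Illumina bead array per group, and the design text of the series gives RNA from 3 mice for a sample. That text also gives an n of 3 for each genotype, so how many mice stand behind each array is uncertain. No difference below therefore has a replicate check, an error or a test, and each describes these 2 arrays.

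Matrix metalloproteases are zinc enzymes that cut collagens, gelatins and other matrix proteins, and in wounds they clear the provisional matrix and let keratinocytes migrate. Most are secreted as inactive precursors, while the membrane-type enzymes sit on the cell surface and activate others there, and TIMPs block them by occupying the active site. ADAMs are transmembrane enzymes best known for releasing growth factors, cytokines and receptors from the cell surface, and ADAMTSs are secreted enzymes that cut proteoglycans or trim procollagens. The urokinase and tissue-type plasminogen activators turn plasminogen into plasmin, which dissolves fibrin and can start the activation of matrix metalloproteases.

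Values are the authors' normalized intensities, and a difference is log2 intensity, knockout minus control. A gene was represented by the brightest of its probes and counted as detected where that probe lay above the array's floor, at 172.2 for the control and 176.7 for the knockout. Intensities of different probes are not comparable, so only the same probe is set side by side on both arrays. In bulk skin, fewer cells of a type and less RNA per cell cannot be told apart. Vdr itself had a signal of 2596 in the control and 2076 in the knockout. Defining genes of skin lay far above the floors, with Krt14, the keratin of basal keratinocytes, at 34643 and 35507 and Col1a1, a main dermal collagen, at 9086 and 11691.

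The secreted metalloproteases Mmp12, Mmp13, Mmp9 and Mmp3, the membrane-type enzyme Mmp14 and the sheddase Adam8 were at least 1.5-fold higher in knockout skin, and the inhibitor Timp3 was as much lower. Both arrays detected 34 of the 71 members, while 4 passed the floor in control skin alone, 0 in knockout skin alone and 33 in neither. Of all 17869 genes, 8935 were detected on both arrays, 548 in control skin alone and 270 in knockout skin alone. Detection of the members was thus much like that of all genes. Of the 34 members detected on both, 30 were higher and 4 lower in the knockout, where 53.9% of the 8935 genes detected on both arrays were higher. At least 1.5-fold higher were 6 of the 34, against 3.55% of all detected genes, and 1 was as much lower, against 2.51%. The median difference of the 34 was 0.13, beside 0.02 for all detected genes, whose central 95% ran from -0.58 to 0.65. With raw intensities scaled only to each array's median, 26 of the 34 were higher and 8 lower, and 41.9% of all genes were higher. In that scaling 197 of all genes (2.2%) were at least 1.5-fold higher and 284 (3.18%) lower, in place of 317 and 224. Of the 34 members, 4 were then at least 1.5-fold higher, in place of 6, and 1 lower. Without a detection filter 48 of all 71 members were higher, where 51.8% of all genes were.

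**Figure D1:**
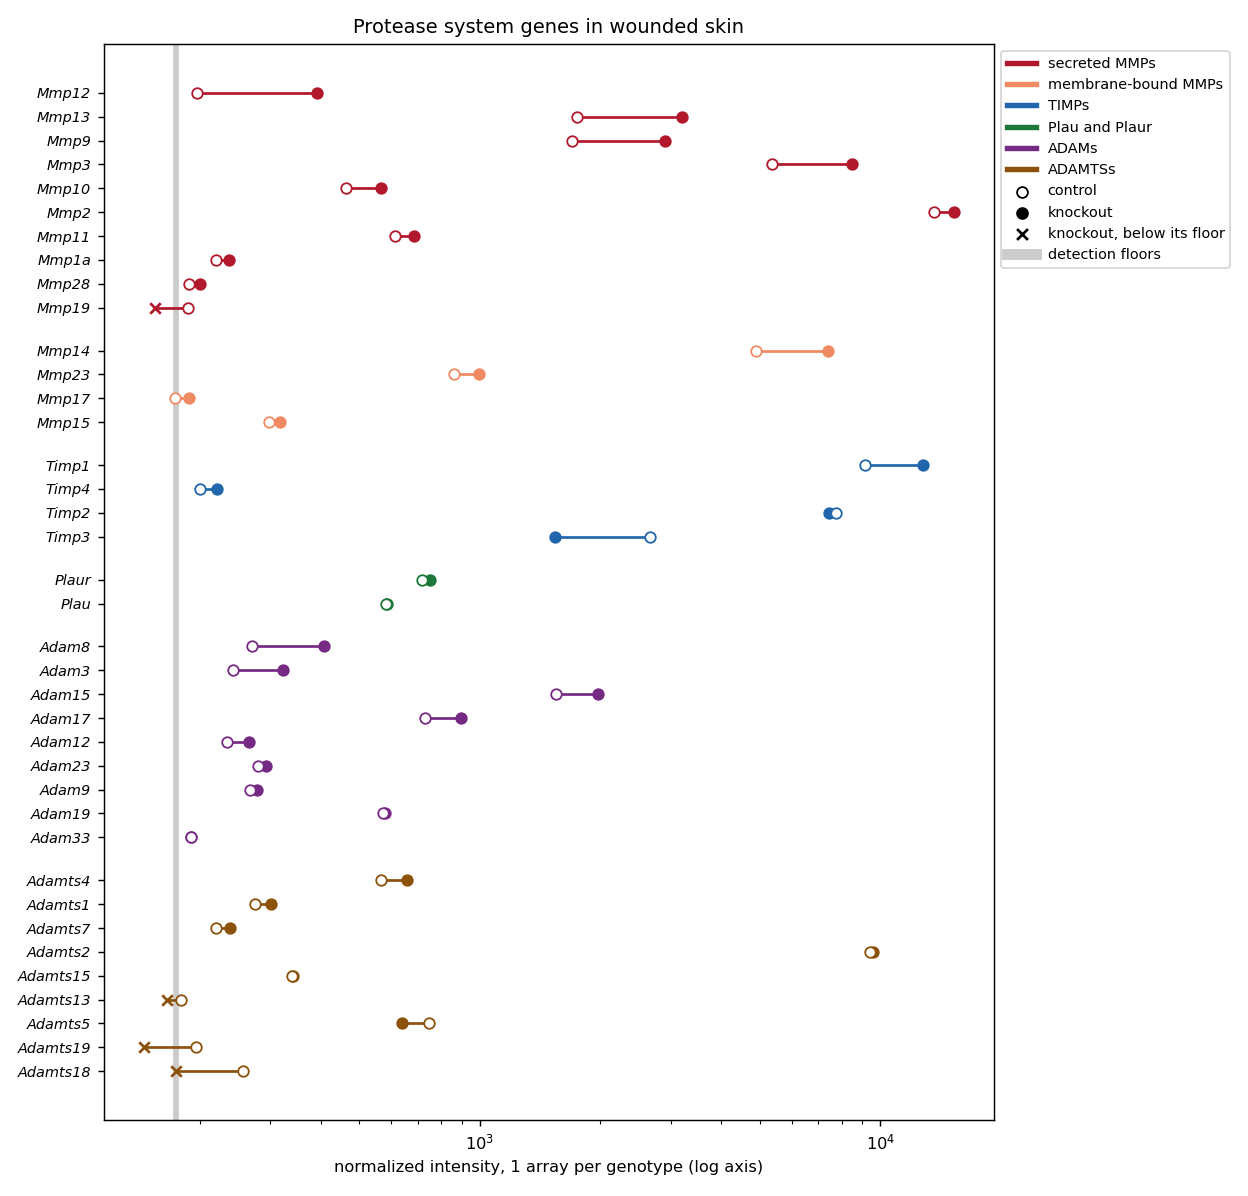
Normalized intensity (log axis) of the 38 members detected on at least 1 array, open circles for control and filled circles for knockout wounded skin, 1 array each, with crosses for knockout values below their floor and a grey band over the 2 floors. The widest gaps to the right are those of Mmp12, Mmp13, Mmp9 and Mmp3, and Timp3 has the widest gap to the left among members detected on both arrays.

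Among the secreted matrix metalloproteases, 9 of 16 were detected on both arrays and all 9 were higher in the knockout, 4 of them at least 1.5-fold, with a median of 0.30. For all genes detected on both arrays these shares were 53.9% and 3.55%. Mmp12, the macrophage elastase, had an intensity of 196 in control and 392 in knockout skin, 2.0-fold higher. The control value is close to the floor of 172.2, so background weighs on this ratio. After background correction with limma's neqc it became 3.89-fold. Mmp13, a collagenase prominent in rodents, was at 1748 and 3191, 1.83-fold higher. Its probes gave the same direction but different sizes: another detected probe was at 197 and 286, a difference of 0.53, and the dimmest, below both floors, at 142 and 157. Mmp9, the gelatinase stored in neutrophil granules and also made by keratinocytes and macrophages, was at 1695 and 2891, 1.71-fold higher. Mmp3, stromelysin-1, which cuts many matrix proteins and activates other metalloproteases, was at 5356 and 8503, 1.59-fold higher. Its 3 probes differed by 0.53, 0.67 and 0.78, so the dimmest of them, at 2273 and 3293, fell just short of 1.5-fold.

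The remaining secreted enzymes lay much closer together on the 2 arrays. Mmp10, stromelysin-2, which marks migrating keratinocytes at the wound edge, was at 462 and 567, 1.23-fold higher. Mmp2, the gelatinase of fibroblasts, was at 13584 and 15235, 1.12-fold higher, and Mmp11, stromelysin-3, at 614 and 684. Mmp1a, a mouse relative of interstitial collagenase, was at 219.5 and 236, and it is so close in sequence to Mmp1b that signal of either gene may be shared. Mmp28, epilysin of keratinocytes, was at 188 and 200. Mmp19 was above the floor on the control array only, at 187, and at 155 in the knockout, at least 1.06-fold lower. Mmp1b, Mmp7, Mmp8, Mmp20, Mmp21 and Mmp27 were detected on neither array, among them the neutrophil collagenase Mmp8, at 139 and 153.

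Of the members past 1.5-fold, Mmp13, Mmp12 and Mmp3 lie in 1 block on mouse chromosome 9. In the RefSeq annotation of GRCm38.p6 this block has 10 protein-coding genes, and all 10 are matrix metalloproteases, in the order Mmp13, Mmp12, Mmp1b, Mmp3, Mmp1a, Mmp10, Mmp8, Mmp27, Mmp20 and Mmp7. Of these, 5 were detected on both arrays and all 5 were higher in the knockout, 3 at least 1.5-fold, with a median of 0.67. Of all genes detected on both arrays, 53.9% were higher and 3.55% at least 1.5-fold higher. The members outside the block had a median of 0.12 over 29 detected genes, with 25 higher and 3 at least 1.5-fold higher. The block was singled out because members past 1.5-fold lie in it. Its median and its contrast with the other members are therefore not independent of that choice. Without a detection filter the medians were 0.16 over the 10 genes of the block and 0.06 over the 61 other members. Not all genes of the block followed: Mmp1a and Mmp10, on the far side of Mmp3, differed by 0.11 and 0.30, and the 5 undetected genes can show nothing. The nearest protein-coding neighbours outside the block were Dcun1d5, at 832 and 738, and, on the other side, Tmem123, detected on neither array, and Birc2, at 862 and 1049.

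**Figure D2:**
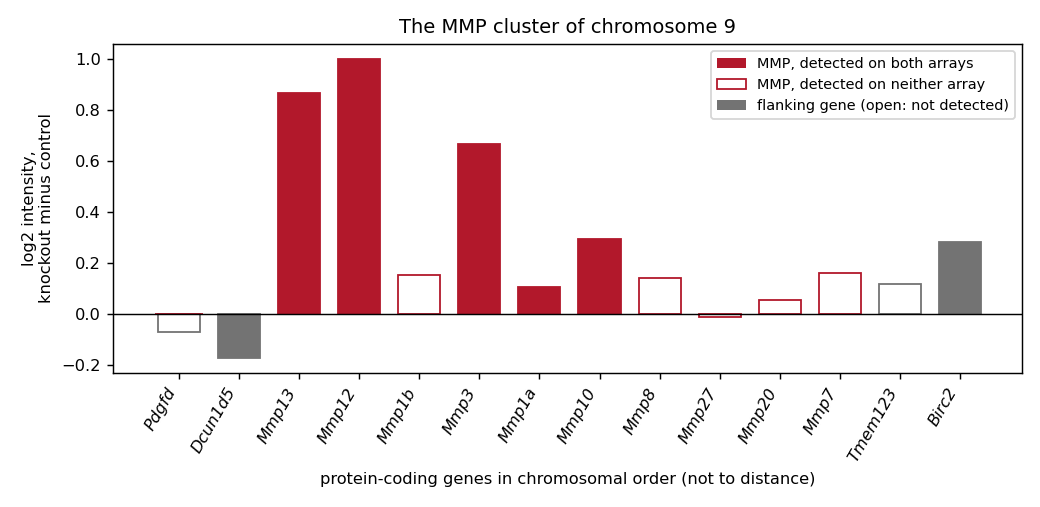
Log2 difference, knockout minus control, of the protein-coding genes along the MMP block of chromosome 9, in order and not to distance, with open bars for genes detected on neither array and grey bars for the flanking genes. The high bars are Mmp13 at 0.87, Mmp12 at 1.0 and Mmp3 at 0.67, while Mmp1a, detected too, stands at 0.11.

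The promoters of the block are shown because its genes share short letters there. AP-1, the dimer of Fos and Jun proteins, binds TGANTCA, which reads the same on both strands, and many metalloprotease promoters are known for such a site shortly before a TATA box. RefSeq promoter windows, from 250 bases before to 50 after an annotated start, were found for 40 of the 71 members by symbol. TGANTCA was present in 8 of 12 windows of the block (66.7%), as Mmp12 and Mmp7 have 2 annotated starts each, in 5 of 33 windows of the other members (15.2%), and in 7.81% of all 32851 windows. TATAAA, searched on both strands, was present in 9 of the 12 windows, in 3 of the 33 and in 13.6% of all. Both together were present in 8 of the 12 and in 1.54% of all windows. The letters do not overlap each other. No window was found for Mmp9, Mmp2 or Plau, and the window of Mmp14 held neither set of letters. The 120 bases before the start follow for the 8 genes with a match, 5′ to 3′ on the gene's strand from RefSeq GRCm38.p6, with TGANTCA in capitals.
Mmp13, chr9:7272394-7272513, plus strand: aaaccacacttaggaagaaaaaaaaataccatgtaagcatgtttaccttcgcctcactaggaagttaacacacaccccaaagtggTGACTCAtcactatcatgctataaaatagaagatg
Mmp12, chr9:7347254-7347373, plus strand: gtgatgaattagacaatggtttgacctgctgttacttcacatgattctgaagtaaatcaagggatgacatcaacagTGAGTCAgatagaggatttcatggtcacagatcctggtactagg
Mmp1b, chr9:7388027-7388146, minus strand: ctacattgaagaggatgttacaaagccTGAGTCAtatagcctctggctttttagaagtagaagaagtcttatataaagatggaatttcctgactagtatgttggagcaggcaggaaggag
Mmp3, chr9:7445702-7445821, plus strand: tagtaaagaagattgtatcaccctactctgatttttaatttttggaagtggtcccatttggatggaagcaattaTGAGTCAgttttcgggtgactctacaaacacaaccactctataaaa
Mmp1a, chr9:7464021-7464140, plus strand: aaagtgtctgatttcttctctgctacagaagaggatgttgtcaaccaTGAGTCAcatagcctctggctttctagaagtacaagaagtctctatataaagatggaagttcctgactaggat
Mmp10, chr9:7502222-7502341, plus strand: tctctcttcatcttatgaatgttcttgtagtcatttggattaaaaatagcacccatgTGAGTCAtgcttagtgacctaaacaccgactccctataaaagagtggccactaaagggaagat
Mmp20, chr9:7628111-7628230, plus strand: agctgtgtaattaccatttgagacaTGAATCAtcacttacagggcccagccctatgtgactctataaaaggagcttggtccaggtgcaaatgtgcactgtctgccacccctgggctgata
Mmp7, chr9:7691970-7692089, plus strand: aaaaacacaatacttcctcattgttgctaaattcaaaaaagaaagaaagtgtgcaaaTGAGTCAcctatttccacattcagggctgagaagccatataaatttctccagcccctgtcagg

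The AP-1 letters began 35 bases before the start in Mmp13, 44 in Mmp12, at the inner of its 2 annotated starts, and 46 in Mmp3, the 3 genes past 1.5-fold. They began 73 bases before it in Mmp1a and 63 in Mmp10, which were detected but differed less, and 93, 95 and 63 in Mmp1b, Mmp20 and Mmp7, which were detected on neither array. The place of TATAAA differed too. It began 16 bases before the start in Mmp13, 7 in Mmp3 and at -4, past the start, in Mmp12. In Mmp1a, Mmp10, Mmp1b and Mmp20 it began 28, 29, 49 and 58 bases before, and in Mmp7 26 and 123. A distance to the annotated start is therefore not a distance to TATAAA. Mmp13 has TGACTCA, Mmp20 has TGAATCA and the other 6 have TGAGTCA. The AP-1 letters are thus present in genes of the block past 1.5-fold, in detected genes short of it and in genes below the floors. A match is a description and not evidence of binding. Among detected members outside the block, Plaur, the urokinase receptor, has TGACTCA 69 bases before its start, and Adam19 has TGAGTCA 131 bases before its own. Neither gene was past 1.5-fold.

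**Figure D3:**
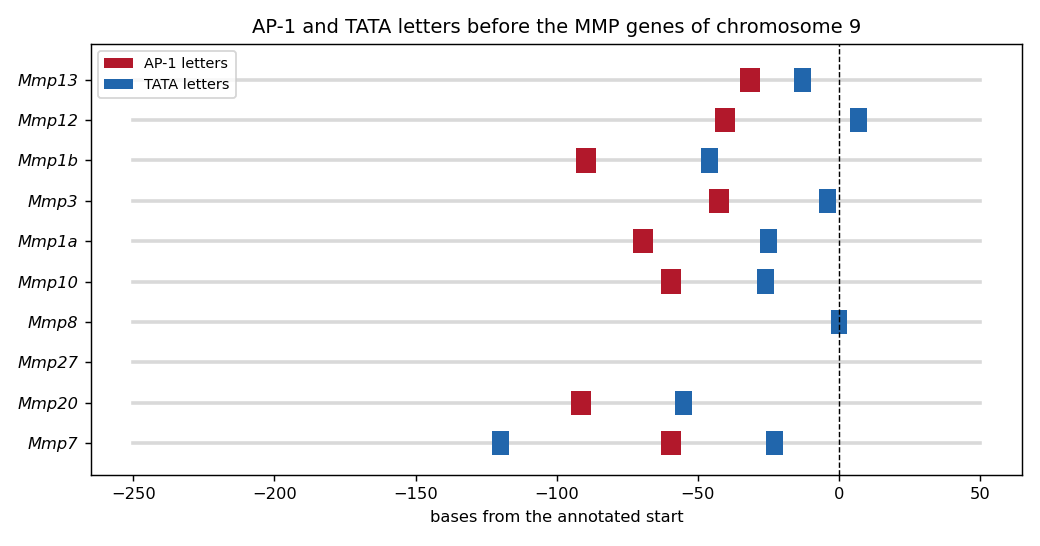
Place of the AP-1 letters TGANTCA (red) and of TATAAA on either strand (blue) in bases from the annotated start for the 10 genes of the chromosome 9 block, each over 250 bases before to 50 after the start. The AP-1 letters stand within 95 bases of the start in the 8 genes that have them, and Mmp8 and Mmp27 have none.

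Membrane-bound matrix metalloproteases were slightly higher as well, 4 of 4 detected on both arrays out of 6, with a median of 0.16. Of all detected genes, 53.9% were higher. Mmp14, the membrane-type collagenase that also activates the precursors of Mmp2 and Mmp13, gave 4884 in control against 7391 in knockout skin, 1.51-fold higher and thus just past the limit. With raw values scaled to the median its difference was 0.53, below it. Mmp23, held in the membrane by its amino-terminal end until it is released, was at 864 and 994, 1.15-fold higher. Mmp15 was at 297 and 317 and Mmp17 at 173 and 188, both near enough to the floor to be understated. Mmp16 and Mmp24 were detected on neither array.

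The inhibitors went in different directions. Timp3, which stays bound to the matrix and, besides metalloproteases, inhibits Adam17 and aggrecan-cutting ADAMTSs, gave 2659 in control against 1542 in knockout skin, 1.72-fold lower. This rests on 1 probe, since its other probe was at 191 and 174, below the knockout floor, and with the mean of both the difference was -0.46. Timp1, the soluble inhibitor induced in wounds, was at 9141 and 12784, 1.40-fold higher, and its other probe gave 8222 and 11590, 1.41-fold higher. Timp2, a soluble inhibitor that also helps Mmp14 to activate Mmp2, was at 7732 and 7457, within 1.04-fold. Timp4 was close to the floor at 200 and 220. Timp1 and Timp3, at the extremes, both lay far above the floors by their brightest probes, so the median of the 4, 0.04, describes neither.

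Plasminogen activation differed little between the arrays. Plau, urokinase, was at 583 and 586, and Plaur, its receptor on the cell surface, at 717 and 750, differences of 0.01 and 0.06. With raw values scaled to the median both were slightly lower instead, at -0.07 and -0.05. Plat, the tissue-type activator, lay below both floors at 166 and 163.

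ADAMs were slightly higher, 8 of the 9 detected on both arrays, where 53.9% of all detected genes were, with a median of 0.18. The array had 28 of them, and 19 were detected on neither array, a group that includes many members known mainly from sperm, such as Adam2, Adam5, Adam24 and Adam26a. Adam8, a sheddase of leukocytes, gave 270.0 in control against 408 in knockout skin, 1.51-fold higher, but its other probe was at 269 and 332, only 1.23-fold higher. Adam15, present in endothelial and epithelial cells, was at 1544 and 1968, 1.27-fold higher. Adam17, which releases TNF and ligands of the EGF receptor, was at 728 and 898, 1.23-fold higher. Adam3, known from fertilisation in the mouse, was at 242 and 322, 1.33-fold higher. It fell short of 1.5-fold, and among detected members only Timp1, at 1.40-fold, lay between it and those past that limit upwards.

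The other detected ADAMs differed by at most 1.13-fold. Adam12, an enzyme of regenerating mesenchyme, was at 234 and 265, and Adam9, a widely expressed sheddase, at 267 and 278. Adam19 was at 573 and 581 and Adam33, expressed by mesenchymal cells, at 190.1 and 189.7. Adam23, which has lost protease activity and acts in adhesion, was at 279 and 292. Adam10, the main sheddase of Notch, was at 136 and 146 on its 1 probe, below both floors, so that nothing can be said of it here.

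**Figure D4:**
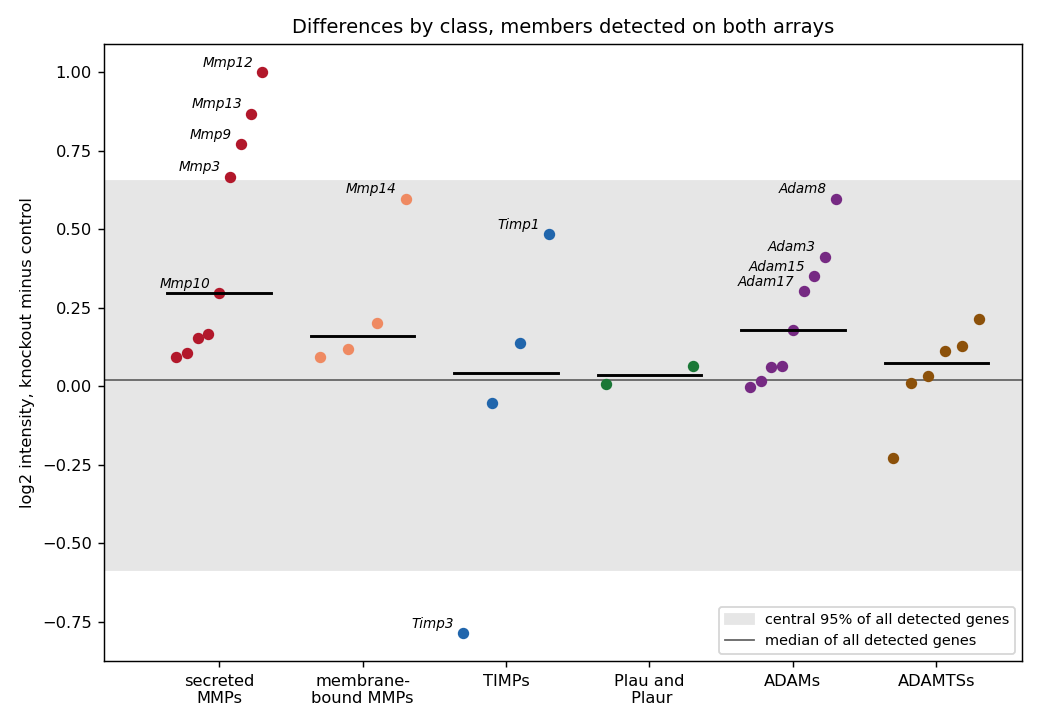
Log2 difference, knockout minus control, of the 34 members detected on both arrays, by class, with a black line at each class median, a grey band for the central 95% of all detected genes (-0.58 to 0.65) and a line at their median (0.02). Mmp12, Mmp13, Mmp9 and Mmp3 lie above the band and Timp3 below it, and the ADAMTSs and Plau with Plaur lie near 0.

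No ADAMTS detected on both arrays was past 1.5-fold. Of 14 measured, 6 passed both floors, 5 of them higher, where 53.9% of all detected genes were, with a median of 0.07. Over all detected genes 6.05% were past 1.5-fold in either direction, so with 6 genes the lack of any does not set the class apart. Adamts2, which trims the amino-terminal propeptide of procollagen, was at 9396 and 9610, and its other probes differed by 0.20 and -0.14, so it has no direction. Adamts4 and Adamts5, which cut aggrecan and versican, went opposite ways, at 565 and 656 and at 748 and 638. Adamts1, another versican-cutting enzyme, was at 275 and 301, Adamts7 at 219 and 237 and Adamts15 at 339 and 342. A further 3 ADAMTSs were above the floor in control skin alone. Adamts18 was at 256 in control skin and at 174, under the floor, in the knockout, at least 1.45-fold lower. Adamts19 was at 196 and 145, at least 1.11-fold lower, and Adamts13, the enzyme that cuts von Willebrand factor, at 179 and 166, with a bound hardly different from 1. Of all 548 genes detected on the control array only, 12.2% had a bound of at least 1.5-fold, and no member did.

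Secreted and membrane-bound proteases had medians close to each other. The secreted proteases, that is secreted matrix metalloproteases, ADAMTSs, Plau and Plat, had 16 of 32 genes detected on both arrays, with a median of 0.14, 15 higher and 1 lower. The membrane-bound proteases, that is membrane-bound matrix metalloproteases and ADAMs, had 13 of 34, with a median of 0.18, 12 higher and 1 lower. This group counts all ADAMs by family, among them Adam23, which has lost protease activity. Of all detected genes, 53.9% were higher. At least 1.5-fold higher were 4 of the 16 secreted and 2 of the 13 membrane-bound proteases, against 3.55% of all detected genes. With raw values scaled to the median these counts were 4 and 0, against 2.2% of all genes. Mmp14 and Adam8, just past 1.5-fold as normalized, fell short of it there. The 4 genes detected on the control array only, Mmp19, Adamts13, Adamts18 and Adamts19, are all secreted. The 4 with the greatest differences upwards were all secreted metalloproteases. The rest of the secreted proteases detected on both arrays lay between -0.23 and 0.30. Of those detected on the control array only, Adamts18 differed by -0.56, Adamts19 by -0.43 and Mmp19 by -0.27, with knockout values below the floor.

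**Figure D5:**
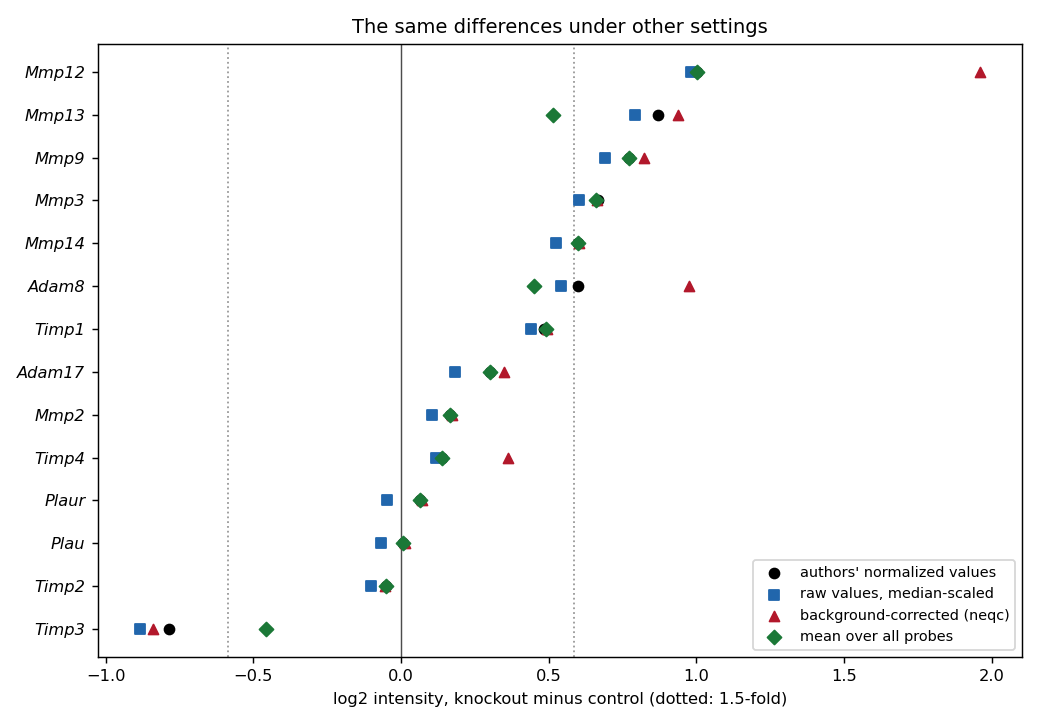
Log2 difference, knockout minus control, of the members past 1.5-fold and of other named members under 4 settings, with dotted lines at 1.5-fold in each direction. Mmp12, Mmp9 and Mmp3 stay past the limit under each of these settings, and Mmp13 and Timp3 fall short of it with the mean over all probes. Mmp14 falls short with raw values scaled to the median, and Adam8 both there and with the mean over all probes. After background correction Mmp12 and Adam8 move to 1.96 and 0.98.

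No listed regulator of these proteases that was detected on both arrays was past 1.5-fold. Over all detected genes 6.05% were past 1.5-fold in either direction and 53.9% were higher, so with 15 genes this does not set the list apart. A list of 30 activators, inhibitors and adaptors had 26 genes on the array and 15 detected on both, 10 higher and 5 lower, 0 of them past 1.5-fold, with a median of 0.09. Reck, a membrane-anchored inhibitor of Mmp2, Mmp9 and Mmp14, was lower, at 443.5 in control and 346 in knockout skin, 1.28-fold. Furin, the protease that removes the propeptide of membrane-type metalloproteases and ADAMs, was at 5412 and 5416. Serpine2, which inhibits urokinase and thrombin, was at 196 and 239, Serpinb2, another urokinase inhibitor, at 1858 and 2040, and Cd44, a docking receptor of Mmp9, at 1567 and 1792. Rhbdf2, which carries Adam17 to the cell surface, was at 206 and 225 and its relative Rhbdf1 at 2712 and 2886. Tspan10, a tetraspanin partner of Adam10, passed the floor in control skin alone, at 263, a bound of 1.49-fold towards lower knockout values.

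Markers of the cells that make these enzymes differed between the arrays to different extents. Among all detected genes, 53.9% were higher, 3.55% at least 1.5-fold higher and 2.51% as much lower. Summed intensities weigh each gene by the brightness of its probe, so they compare the same list between the 2 arrays only, and a few bright genes can set them. Of 15 macrophage and monocyte markers detected on both arrays, 12 were higher and 3 lower in knockout skin. Their median was 0.31, and their intensities summed to 49137 in the control and 59562 in the knockout. Ms4a7 was 1.70-fold and Csf1r 1.43-fold higher and Chil3 1.61-fold lower, and Ccr2 was detected on neither array. Of 10 neutrophil markers, 6 were higher and 4 lower, with a median of 0.02 and a summed intensity of 49202 and 49025. Most of these sums came from S100a8, at 27568 and 28157, and S100a9, at 12528 and 11928. Trem1 was 1.51-fold higher, the only neutrophil marker detected on both arrays that was past 1.5-fold. Ngp, Elane and Fpr1 were detected on neither array, and Mpo on the knockout array only. Fibroblast and matrix markers had a median of 0.15 over 13 genes, of which 11 were higher, with sums of 64908 and 72048, and Postn was detected on neither array. Basal keratinocyte markers had a median of 0.10 over 9 genes, of which 8 were higher, with sums of 70746 and 74196. Growing hair follicle markers were far lower, 9 of 9, with a median of -6.03 and sums of 158377 and 3831. Endothelial markers had a median of 0.28 over 9 genes, with sums of 7019 and 8749, and skeletal muscle markers 0.14 over 10, with sums of 76474 and 83045. Adipocyte markers had a median of -0.34 over 4 genes, with sums of 23498 and 19469. Epidermal differentiation markers were divided, 4 higher and 5 lower, with a median of -0.14 but sums that went up from 74420 to 87646, and Casp14, a protease of cornifying keratinocytes, was 1.66-fold higher. Lymphoid markers were higher, 5 of 6 at least 1.5-fold, with a median of 0.88 and sums of 1717 and 3187. The part of cell amounts in the differences of Mmp12, Mmp13, Mmp9 and Mmp3, at 0.67 to 1.0, was not tested.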

How the data were processed

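Total RNA was hybridised to 2 Illumina bead arrays, 1 per genotype, grouped by the sample titles. Scanner data went through GenomeStudio 2011.1, per the submitters' processing notes, and the normalization method was not given in the sources used here. The deposited raw table holds the bead intensity per probe without background subtraction, with medians of 180.0 (control) and 165.8 (knockout). The deposited normalized table holds intensity with equal quantiles on both arrays, and its log2 was used with no offset, so background stays in and folds of dim genes are understated.

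The deposited detection p-values do not follow the row order of the signals (rank correlation 0.009 and 0.008), as was seen in the data. They were used as a set: the number of p-values under 0.01 on an array set how many of its brightest probes counted as detected, namely 12588 probes on the control and 12161 on the knockout array. For 27 genes, 0 of them members, another probe passed a floor that the brightest did not. A gene detected on 1 array has a bound, computed against the other array's floor or, where higher, its own value there.

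Probes of other genes were named through RefSeq's gene table of GRCm38.p6 (25274 of them), and 320 kept the name in the file. The members, gene lists and alternatives were chosen with earlier results of these data known. Named members are those past 1.5-fold, with such a bound, or fixed beforehand, and the others are given by role. No test was run, since 1 array per group leaves no spread, and the number of arrays limits the precision. Alternatives were median-scaled raw values, limma 3.58.1 neqc (offset 16) after reordering the p-values to follow the signals, the mean over probes, a detection p under 0.05, and no filter. The calling steps were tested on simulated data, with large changes in bright probes, 1 probe per gene, called at 2-fold. That run did not cover calls near 1.5-fold, genes near the floors or genes with several probes. Python 3.11.15 and R 4.3.3 were used. Regulators not named are given only in the counts of their list, and 1 of them is not reported here.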

Additional observations from a re-analysis of the deposited data

How the results depend on the processing

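Of 131 values recomputed under 5 alternatives, 127 stayed within the limits used here (0.58 on the log2 scale for a difference or median, 1.5 times for a count) and 4 moved. Many of these values could not move. The looser detection p cannot change the difference of a single gene, nor can the mean over probes where a gene has 1 probe. The limit of 0.58 is also wide beside class medians of 0.04 to 0.30, so 127 of 131 overstates how firm the values are. Among the 127, the sign turned in 3, the differences of Plau and Plaur and their median, all with raw values scaled to the median, and the largest of these as normalized was 0.06. The count of members at least 1.5-fold higher went from 6 to 4 with raw values scaled to the median and also with the mean over probes. It went to 7 with neqc. A change from 6 to 4 was still within the limit for a count. The count of members at least 1.5-fold lower went from 1 to 0 with the mean over all probes of a gene, since the dim probe of Timp3 enters. The count of membrane-bound proteases at least 1.5-fold higher went from 2 to 0 with raw values scaled to the median, where Mmp14 and Adam8 were at 0.53 and 0.54, and to 1 with the mean over probes. The difference of Mmp12 went from 1.0 to 1.96 with background correction by neqc. The members' median ran from 0.06 to 0.25 and the secreted metalloproteases' from 0.15 to 0.37. The median of Plau and Plaur ran from -0.06 to 0.04. Over all genes detected on both arrays, neqc gave 662 at least 1.5-fold higher and 422 lower, in place of 317 and 224. Probes of a member that were detected on both arrays differed by up to 0.34 on the log2 scale, over 6 genes with several such probes. Below the floors, 33 members at intensities of 124 to 170 allow no statement. No paired analysis was possible because each group has 1 array.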

Other observations

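The array names some relatives of these genes by older symbols, which the choice by symbol did not reach. The accession of 6330442E02Rik is that of Adamts3, a procollagen-trimming enzyme, and this probe gave 155 in control against 137 in knockout skin. The accessions of LOC384806 and LOC384813 are those of Adam20 and Adam34l, at 153 and 142 and, by the brightest probe, at 145 and 147. The values of these 3 genes lay below both floors.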
